A study of Mus musculus with 6 samples.

Results

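The transcripts followed here come from 46 genes chosen by name, with earlier results of these data known. They are 22 lysosomal hydrolases, 2 luminal cofactors, 5 membrane proteins and 2 transcription factors of the lysosome. The other 15 are genes of the vacuolar H+-ATPase (V-ATPase). All 46 were present among the 23345 genes measured, and all 46 passed the filter of a mean of at least 10 normalized counts that left 15655 genes for testing. RNA came from endothelial cells of lungs of C57BL/6JOlaHsd mice that had received a high-fat diet (HFD) or a normal diet (ND) for 12 weeks. The cells had been cultured after enrichment with ICAM-2 antibody and depletion of cells carrying CD16/CD32. Libraries of 500 cells, primed with oligo(dT) and amplified by PCR, were made from 3 HFD mice (numbers 2, 4 and 5) and 3 ND mice (numbers 1, 3 and 4), whose age and sex are not stated.

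Lysosomes are acidic compartments in which hydrolases break down proteins, glycans and lipids that reach them by endocytosis and autophagy. The V-ATPase pumps protons into them, using an ATP-driven V1 sector in the cytosol and a membrane-bound V0 sector. TFEB and TFE3 are related transcription factors that, when mTORC1 is inactive, enter the nucleus and switch on lysosomal genes through a short palindrome in their promoters. In endothelium, lysosomes take up and degrade plasma lipoproteins and receptors recovered from the surface.

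Each value is a number of reads scaled by the size factor of its library, called normalized counts below. Depth was 18808208 to 27896648 reads in HFD libraries and 13752860 to 17194899 reads in ND libraries, so depth and diet cannot be told apart. The 10 endothelial markers checked summed to 160218 to 189823 normalized counts in HFD and 124438 to 158107 in ND. Library ND 3 stood apart through transcripts of alveolar epithelium, whose 11 markers summed to 102782 normalized counts there, against 4281 to 18177 in HFD libraries and 3932 and 7032 in ND 1 and ND 4. The 9 macrophage markers summed to 144 to 774 in HFD and to 368, 6642 and 827 in ND 1, ND 3 and ND 4. Lyz2 accounted for 6388 of the sum in ND 3, while Mpeg1 was at most 2.36 and C1qc at most 9.50 in any library. Cd14 went the other way, at 137, 103 and 385 in HFD 2, HFD 4 and HFD 5, against 0, 0 and 125 in ND 1, ND 3 and ND 4. Mesenchymal markers summed to 511 to 3392 in HFD and to 3609, 10036 and 291 in ND 1, ND 3 and ND 4. Lymphocyte and platelet markers summed to 5109, 217 and 365 in HFD 2, HFD 4 and HFD 5, against 268 to 1310 in ND. The part of other cells in the results was not tested. In bulk RNA, fewer cells of a type and less RNA per cell cannot be told apart.

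The comparison asked which of these transcripts differed between lung endothelial cells of HFD and ND mice. No gene passed the limma test given below. Transcripts of a regulator, a membrane channel and a few luminal proteins did not overlap between diets. Tfe3 had 4.15 times as high a mean in HFD as in ND, and Mcoln1, a lysosomal cation channel, 2.77 times. The proteases Ctsa and Lgmn, the thioesterase Ppt1 and the growth factor precursor Grn had means 1.74 to 1.95 times as high. In these 6 genes every HFD value exceeded every ND value, as in 8.12% of all genes tested, and 0 of the 15 V-ATPase genes separated in this way. Without ND 3 the log2 fold changes of the 6 were 0.80 to 1.98.

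None of the 46 genes passed the test, which was limma on log2(normalized count + 1) with Benjamini-Hochberg adjustment over all 15655 genes at 0.05. The smallest adjusted p among them was 0.408, for Tfe3, and 0 of all genes tested (0%) passed. At an unadjusted p under 0.05 there were 5 members, against 7.92% of all genes tested. These were 5 higher in HFD (Tfe3, Ppt1, Mcoln1, Ctsa and Lgmn), against 5.56% of all genes tested, and 0 lower, against 2.36%. Members that did not overlap between diets numbered 6 higher in HFD, or 13.0% of 46, against 8.12% of all genes tested, and 0 lower, against 5.93%. A fold change above 0 was found for 31 of 46 members, or 67.4%, against 52.8% of all genes tested. As the members were chosen with earlier results of these data known, these shares are description only. On whole reads, edgeR and limma-voom called 0 members (0% of all genes each). At an unadjusted p under 0.05 they had 5 and 7 members, against 1462 and 1311 of the 15655 genes tested. DESeq2 called 1 member, Tfe3, and 1.74% of all genes tested. Its unadjusted p was under 0.05 for 6 members, against 1630 of the 15655 genes.

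**Figure D1:**
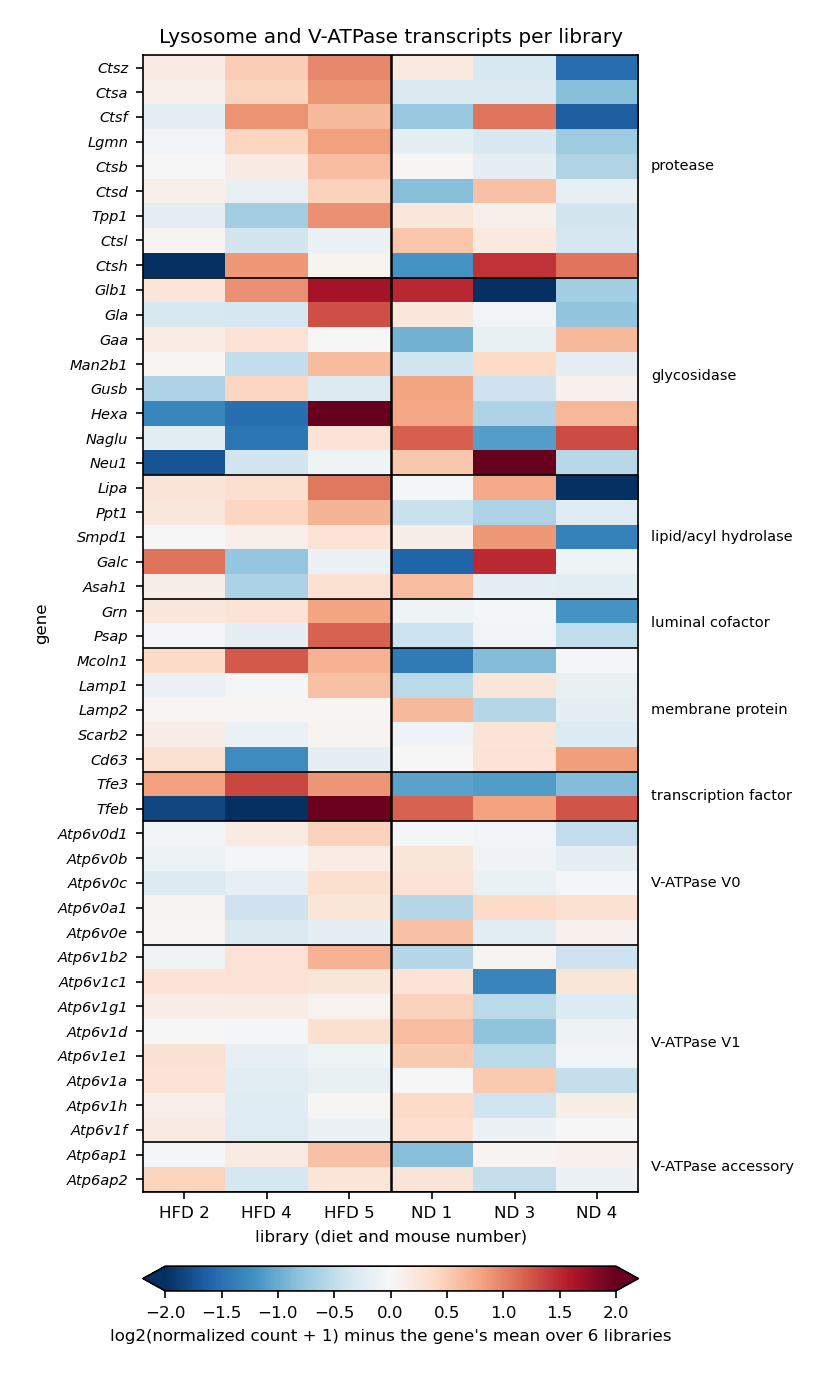
Heat map of all 46 genes (rows, by role and then by fold change) in the 3 HFD and 3 ND libraries (columns), coloured by log2(normalized count + 1) minus the mean of that gene over the 6 libraries. The row of Tfe3 is red in every HFD library and blue in every ND library, while rows of the V-ATPase genes are mostly pale and show no split by diet.

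The transcription factors differed in how far their diets overlapped. TFE3 is a broadly expressed member of the MiT family, and its transcript had 403, 576 and 420 normalized counts in HFD 2, HFD 4 and HFD 5, against 107, 105 and 125 in ND 1, ND 3 and ND 4. The lowest HFD value was thus far above the highest ND value, and the spread within each diet was small. The means were 466 ± 95.3 in HFD and 112 ± 10.8 in ND (SD, n = 3 each), a log2 fold change of 2.03 ± 0.44 (SE) with a limma unadjusted p = 0.00240 and adjusted p = 0.408. It was 1.87 to 2.12 when any 1 library was left out. DESeq2 gave Tfe3 an adjusted p = 0.0122 at a log2 fold change of 1.99 ± 0.51.

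TFEB is the best-known activator of lysosomal genes in this family. Tfeb had 1.94, 0 and 39.6 normalized counts in HFD 2, HFD 4 and HFD 5, against 22.4, 17.1 and 23.8 in ND 1, ND 3 and ND 4. The 0 reads in HFD 4 allow up to 2.42 normalized counts (counting error only), and HFD 5 was above every ND library. Its log2 fold change of −2.15 ± 1.46 (limma adjusted p = 0.743) was −1.16 with a pseudocount of 5 and −0.73 with DESeq2, and −1.003 without HFD 4 and −3.67 without HFD 5. Per exonic kilobase Tfe3 had 31.2 and Tfeb 3.08 normalized counts on average, which made Tfeb the lowest of the 46 members. Mitf, of the same family, had 150, 10.5 and 158 normalized counts in HFD and 169, 325 and 153 in ND.

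Promoters of the members were searched for the palindrome that TFEB and TFE3 bind. Carrying it does not by itself make a gene a target of these factors. RefSeq promoters on GRCm38.p6, from 250 bases before to 50 bases after the start, were at hand for 39 of the 46 members. The search used the letters CACGTG and the longer TCACGTGA that contains it, each of which reads the same on either strand. CACGTG stood in a promoter of 15 of 39 members (38.5%), against 8.09% of all 27025 genes with a promoter and 11.2% of the tested genes among them. TCACGTGA stood in 7 of 39 members (17.9%), against 1.12% of all genes and 2.11% of the tested genes. A match describes letters in this window and was not tested as a binding site. The 7 members with the 8-base form are shown because they span hydrolases, a channel and the pump. Capitals mark TCACGTGA, with 15 bases on either side, on the strand of the gene:
Mcoln1: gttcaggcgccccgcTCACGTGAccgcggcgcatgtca
Ctsa: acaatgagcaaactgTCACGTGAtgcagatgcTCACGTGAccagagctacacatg
Ctsd: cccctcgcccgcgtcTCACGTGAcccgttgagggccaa
Gla: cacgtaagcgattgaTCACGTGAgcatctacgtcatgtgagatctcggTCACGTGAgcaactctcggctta
Atp6v0d1: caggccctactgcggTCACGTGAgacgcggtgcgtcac
Atp6v0e: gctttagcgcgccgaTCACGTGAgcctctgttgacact
Atp6v1a: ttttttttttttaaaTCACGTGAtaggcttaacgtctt

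The windows lie at chr8:3500458-3500495 for Mcoln1 and chr2:164833745-164833799 for Ctsa, both on the plus strand. They lie at chr7:142387904-142387941 for Ctsd and chrX:134601178-134601248 for Gla on the minus strand. Those of the pump lie at chr8:105566046-105566083 for Atp6v0d1 (minus), chr17:26676383-26676420 for Atp6v0e (plus) and chr16:44139369-44139406 for Atp6v1a (minus). The palindrome began at −46 from the RefSeq start of Mcoln1, at −228 and −195 in Gla and at −4 in Atp6v0d1. In Ctsa it began at −13 and 5, but only in promoter 2 of its 2 promoters. That window lies inside the gene, whose GENCODE start is 164832873. The window of Atp6v0e also lies inside its gene, which starts at 26663231 in GENCODE. Ctsa and Gla thus carried a pair each.

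Fold changes of the carriers lay on both sides of 0. Among the 7, Mcoln1 and Ctsa separated by diet, but Atp6v0e and Atp6v1a had log2 fold changes of −0.31 and −0.05. The median log2 fold change was 0.38 over the carriers and 0.13 over the members without it. Tfe3, Ppt1 and Grn, which separated by diet, had neither form in their windows. The promoter of Mcoln1 is given whole, as that of the carrier with the largest fold change. It covers chr8:3500269-3500568 of GRCm38.p6 on the plus strand and holds CACGTG 2 times, in capitals here with the flanking T and A of the second copy:
Mcoln1 promoter: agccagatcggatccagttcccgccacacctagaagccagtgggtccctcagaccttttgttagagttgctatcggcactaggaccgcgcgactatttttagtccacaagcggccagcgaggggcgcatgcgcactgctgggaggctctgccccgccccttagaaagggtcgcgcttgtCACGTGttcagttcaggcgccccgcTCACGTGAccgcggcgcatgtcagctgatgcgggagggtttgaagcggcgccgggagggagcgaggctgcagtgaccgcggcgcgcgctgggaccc

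**Figure D2:**
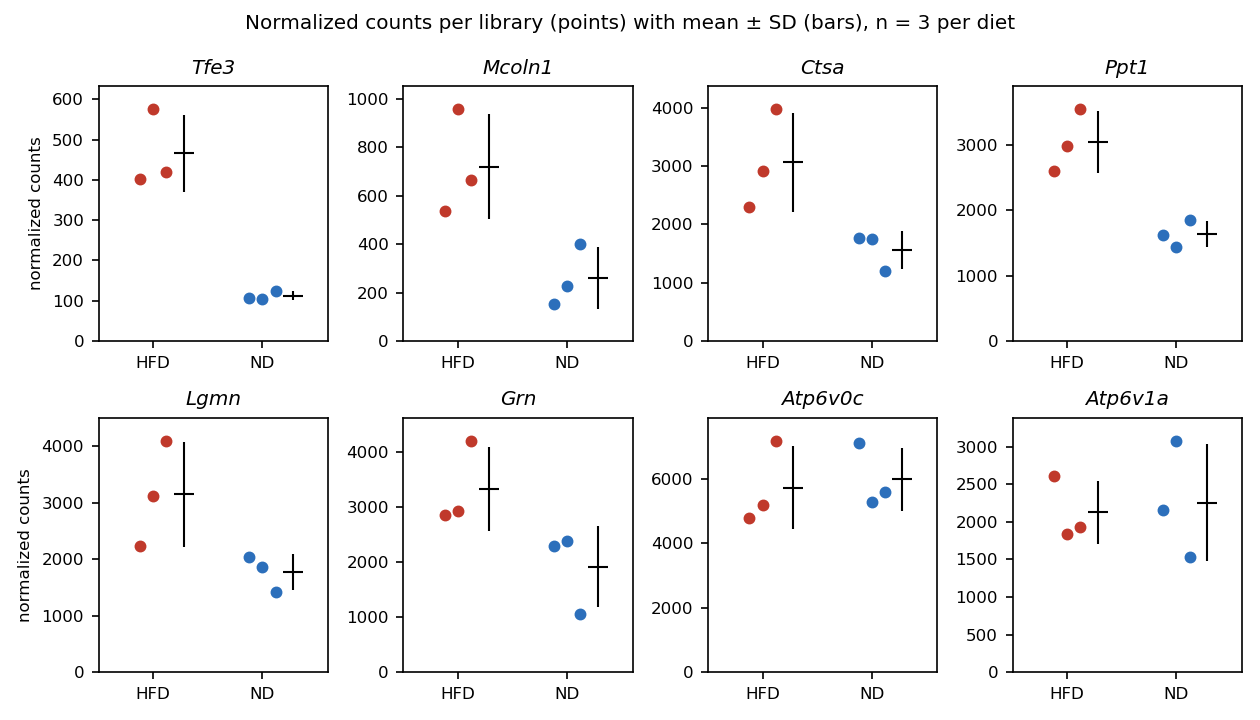
Normalized counts per library of 8 genes, with HFD in red left of ND in blue, 1 point per mouse and bars for mean ± SD (n = 3 each). In Tfe3, Mcoln1, Ctsa, Ppt1, Lgmn and Grn every HFD point lies above every ND point, and in the pump genes Atp6v0c and Atp6v1a the points of the diets mix.

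The lysosomal membrane proteins did not share a direction, and their median log2 fold change of 0.08 was close to the 0.05 of all genes tested. MCOLN1 releases calcium from lysosomes and is itself a target of TFEB. Mcoln1 had 536, 958 and 666 normalized counts in HFD 2, HFD 4 and HFD 5, against 154, 226 and 400 in ND 1, ND 3 and ND 4, with no overlap. The log2 fold change was 1.54 ± 0.50 (limma unadjusted p = 0.0174, adjusted p = 0.554), and 1.22 to 1.90 without any 1 library.

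LAMP1 and LAMP2 make up much of the protein coat inside the lysosomal membrane. Lamp1 had 8243, 8690 and 13386 normalized counts in HFD, against 6158, 10551 and 7995 in ND, a log2 fold change of 0.29 ± 0.28 (limma adjusted p = 0.823) that was 0.07 without HFD 5 and 0.10 without ND 1. Lamp2 had 7674, 7605 and 7657 in HFD, nearly equal, and 11673, 5009 and 6528 in ND, a log2 fold change of 0.08 ± 0.31 (limma adjusted p = 0.972). The diets overlapped in each, and the sign for Lamp2 turned under equal column totals, at −0.04. Cd63, a tetraspanin of late endosomes and of the endothelial storage granules that hold von Willebrand factor, had 1017, 342 and 722 in HFD and 830, 1004 and 1469 in ND. This was a log2 fold change of −0.76 ± 0.49 (limma adjusted p = 0.729) and −0.32 without HFD 4. Scarb2, the receptor that carries glucocerebrosidase to lysosomes, averaged 1980 ± 189 in HFD and 1936 ± 384 in ND (SD, n = 3 each). Per exonic kilobase Lamp1 was the third most abundant of the 46 members, with 3428 normalized counts on average, against 805 for Lamp2 and 64.9 for Mcoln1.

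Hydrolases leaned towards higher values in HFD, with 15 of 22 fold changes above 0 (68.2%, against 52.8% of all genes tested) and a median log2 fold change of 0.27. The diets did not overlap in 3 of 22, all higher in HFD, which is 13.6%, against 8.12% of all genes tested, and 0 were lower, against 5.93%. Leaving out HFD 5 gave a median of 0.15, and leaving out ND 1 or ND 4 gave 0.14 or 0.13. Leaving out ND 3 gave 0.51, so the size of the median rested on single libraries. The sign of the fold change held in every fit without 1 library for 11 of the 22. HFD 5 held the highest value of 11 of the 22 hydrolases and of 19 of all 46 members, against 21.5% of all genes tested, and the lowest value of 0 members. HFD 5 was also the deepest library.

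Among the 9 proteases, 7 had fold changes above 0, and Ctsa and Lgmn separated by diet. Cathepsin A, which protects β-galactosidase and neuraminidase in a complex, had 2300, 2914 and 3977 normalized counts of Ctsa in HFD 2, HFD 4 and HFD 5, against 1759, 1754 and 1191 in ND 1, ND 3 and ND 4. The means were 3064 ± 848 in HFD and 1568 ± 326 in ND (SD, n = 3 each), with a log2 fold change of 0.95 ± 0.31 (limma unadjusted p = 0.0185, adjusted p = 0.561). Pltp, on the opposite strand, is the largest of its overlaps, at 10.5% of the exonic bases of Ctsa, and the strand used for counting is not stated. Lgmn, an asparaginyl endopeptidase that also matures cathepsins, had 2236, 3119 and 4098 in HFD and 2046, 1871 and 1416 in ND. For Lgmn the log2 fold change was 0.80 ± 0.31 (limma unadjusted p = 0.0371, adjusted p = 0.586). The gap between the nearest libraries of the diets was narrow for Lgmn and wider for Ctsa.

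The exopeptidase gene Ctsz had 1831, 2306 and 3183 normalized counts in HFD and 1873, 1321 and 565 in ND, so that ND 1 lay just above HFD 2. That is a log2 fold change of 1.09 ± 0.48 (limma adjusted p = 0.639) and 0.60 without ND 4. Ctsb, a cysteine protease of broad substrate range, had 3952, 4449 and 6104 in HFD and 4018, 3452 and 2615 in ND, a log2 fold change of 0.52 ± 0.27 (limma adjusted p = 0.663) that was 0.34 without HFD 5. Fdft1, on the opposite strand, covers 12.8% of the exonic bases of Ctsb. Both Ctsz and Ctsb overlapped through 1 pair of libraries. Ctsd, the main aspartic protease, averaged 2886 ± 612 in HFD and 2541 ± 1238 in ND, and Ctsl 4716 ± 668 in HFD and 5862 ± 1757 in ND (SD, n = 3 each). Their log2 fold changes were 0.28 ± 0.40 and −0.28 ± 0.28 (limma adjusted p = 0.892 and 0.832), and without ND 1 they were −0.07 and −0.07.

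Single values of Ctsd and Ctsl are less certain, as other genes overlap more of their exonic bases than in any other member. Of the 50-base stretches in Ctsd transcripts, 32.4% also occur in Gm49369, an overlapping gene model on the same strand. Gm47123, on the opposite strand, covers 26.8% of the exonic bases of Ctsl. Smaller overlaps, also on the opposite strand, were those of Tmem202 with Hexa (12.8%) and of Gm12841 with Atp6v0b (11.8%). Among the remaining proteases, Tpp1, the peptidase lacking in a childhood ceroid lipofuscinosis, had a log2 fold change of 0.02, Ctsf 0.90 and Ctsh −0.89. Ctsh, which alveolar type II cells also use to process surfactant protein, had 60.2, 538 and 308 normalized counts in HFD and 128, 806 and 620 in ND. Its highest value was in ND 3, where the epithelial marker Sftpc had 70918 normalized counts, against 111 to 1195 in HFD libraries and 959 and 798 in ND 1 and ND 4. The part of epithelial RNA in the values of Ctsh was not tested.

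The 5 hydrolases of lipids and acyl chains included Ppt1, the second smallest p of the members. PPT1 removes fatty acyl chains from cysteines of proteins under degradation. Ppt1 had 2602, 2975 and 3543 normalized counts in HFD 2, HFD 4 and HFD 5, against 1626, 1439 and 1844 in ND 1, ND 3 and ND 4. The means of 3040 ± 474 in HFD and 1636 ± 203 in ND (SD, n = 3 each) were separated by a clear gap. The log2 fold change was 0.89 ± 0.25 (limma unadjusted p = 0.00965, adjusted p = 0.509) and stayed between 0.77 and 1.00 without any 1 library.

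Lipa encodes lysosomal acid lipase, which frees cholesterol and fatty acids from the esters of endocytosed lipoproteins. It had 860, 896 and 1482 normalized counts in HFD, against 696, 1210 and 139 in ND, and the values overlapped through ND 3. Its log2 fold change of 1.09 ± 0.78 (limma adjusted p = 0.758) was 0.19 without ND 4 and 1.74 without ND 3. Of the sphingolipid enzymes, the acid ceramidase gene Asah1 averaged 4895 ± 1523 in HFD and 5397 ± 1913 in ND (SD, n = 3 each). The acid sphingomyelinase gene Smpd1 averaged 341 ± 32.0 in HFD and 341 ± 223 in ND, and Galc, for galactosylceramidase, 141 ± 95.7 in HFD and 160 ± 152 in ND. All 3 overlapped between diets.

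The 8 glycosidases were divided, with 4 fold changes above 0 and 4 below, a median of −0.09 and 0 genes separated by diet, in a group of 8 to be read against 8.12% of all genes tested higher and 5.93% lower. Neuraminidase gene Neu1 had the smallest p of the group, with 47.6, 122 and 150 normalized counts in HFD and 231, 749 and 108 in ND. Neu1 had a log2 fold change of −1.47 ± 0.85 (limma adjusted p = 0.700), −0.72 without ND 3 and −0.97 without HFD 2. Glb1, the β-galactosidase, ranged from 186 to 505 in HFD and from 11.8 to 450 in ND. Hexa, a β-hexosaminidase chain, had 120, 105 and 1203 in HFD, against 514, 196 and 475 in ND, so a single HFD library held the highest value and the others the lowest. Log2 fold changes were 1.88 for Glb1, −0.54 for Hexa, 0.42 for Gla, 0.29 for Gaa, 0.13 for Man2b1, −0.31 for Gusb and −0.94 for Naglu, the last of which acts on heparan sulfate.

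The median within-diet SD was 0.95 log2 units for glycosidases, 0.55 for proteases and 0.37 for the V-ATPase genes, against 0.81 for all genes tested. Median levels were 247 normalized counts for glycosidases, 2464 for proteases and 3773 for the V-ATPase genes. The within-diet SD reached 1.89 log2 units in Glb1, while it was 0.20 in Ppt1 and 0.22 in Tfe3. Tfe3 was thus steady within each diet at a level at which other members varied widely.

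**Figure D3:**
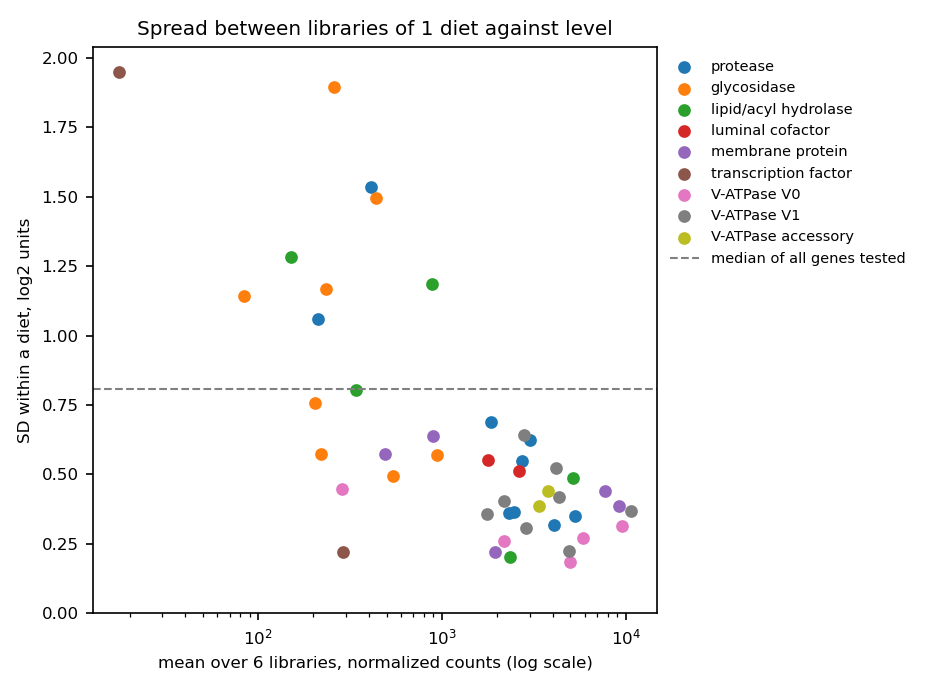
Standard deviation within a diet, in log2 units, against the mean of the 6 libraries in normalized counts (log axis), 1 point per gene, coloured by role. Tfe3 lies low at 0.22 although its mean is 289 normalized counts, and the dashed line is the 0.81 median of all genes tested.

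The luminal cofactors were both higher on average in HFD. Grn, whose product progranulin is cut into granulins in the lysosome, had 2854, 2932 and 4209 normalized counts in HFD 2, HFD 4 and HFD 5, against 2291, 2387 and 1068 in ND 1, ND 3 and ND 4. The diets did not overlap, and the log2 fold change was 0.86 ± 0.38 (limma unadjusted p = 0.0563, adjusted p = 0.639), or 0.49 without ND 4. Psap, the precursor of the saposins that present sphingolipids to their hydrolases, had 1616, 1453 and 3708 in HFD and 1215, 1585 and 1162 in ND. HFD 4 lay below ND 3, and the log2 fold change of 0.65 ± 0.41 (limma adjusted p = 0.725) was 0.23 without HFD 5.

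The V-ATPase genes had a median log2 fold change of 0.04, against 0.05 for all genes tested. Their fold changes ran from −0.31 for Atp6v0e to 0.61 for Atp6v1b2, 9 of 15 were above 0, against 52.8% of all genes tested, and 0 had an unadjusted p under 0.05, against 7.92%. Values of the diets overlapped in all 15 genes. Over all genes tested 8.12% were separated higher and 5.93% lower, so a count of 0 among 15 is near the background. The median was −0.08 under equal column totals, a scaling that moved the median of all genes tested from 0.05 to −0.06. Relative to all genes it was −0.01 with the deposited size factors and −0.02 under equal totals, against 0.22 and 0.21 for the hydrolases. That difference of the hydrolases from all genes was 0.07 without ND 1 or ND 4, 0.11 without HFD 5 and 0.48 without ND 3. With DESeq2 it was 0.15. With a minimum mean of 50 the median of all genes was 0.115, and the difference was 0.15 for the hydrolases and −0.08 for the V-ATPase genes. For the V-ATPase genes the difference was 0.11 without ND 1, so the contrast between the groups rested on single libraries.

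In the V0 sector, the proteolipid gene Atp6v0c, whose product forms most of the rotating ring, had 4785, 5189 and 7188 normalized counts in HFD, against 7101, 5277 and 5601 in ND. Its log2 fold change was −0.08 ± 0.24 (limma adjusted p = 0.960). Part of its reads may be shared with a pseudogene, as 10.8% of its 50-base stretches also occur in other genes, mainly Atp6v0c-ps2. Atp6v0d1, which couples the ring to the central stalk, had 2076, 2394 and 2956 in HFD and 2109, 2064 and 1522 in ND, a log2 fold change of 0.38 ± 0.27 (limma adjusted p = 0.758), 0.25 without HFD 5 and 0.23 without ND 4. Only ND 1 reached into the HFD range. Log2 fold changes of Atp6v0b, Atp6v0a1 and Atp6v0e were 0.02, −0.08 and −0.31.

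In the V1 sector, the catalytic subunit gene Atp6v1a had 2610, 1843 and 1928 normalized counts in HFD and 2152, 3078 and 1538 in ND, a log2 fold change of −0.05 ± 0.33 (limma adjusted p = 0.986). The partner that completes the nucleotide-binding hexamer, Atp6v1b2, had 1614, 2066 and 2748 in HFD and 1141, 1764 and 1270 in ND, a log2 fold change of 0.61 ± 0.32 (limma adjusted p = 0.666). It overlapped through HFD 2 and ND 3. Atp6v1h, a regulatory subunit, averaged 2781 ± 335 in HFD and 2981 ± 780 in ND (SD, n = 3 each), a log2 fold change of −0.07 ± 0.28 (limma adjusted p = 0.970). The stalk and linker genes Atp6v1c1, Atp6v1d, Atp6v1e1, Atp6v1f and Atp6v1g1 had log2 fold changes of 0.53, 0.19, 0.04, −0.15 and 0.23. ND 3 held the lowest value of 6 of the 15 pump genes and ND 1 the highest of 7, so the extremes often lay among the ND libraries. Atp6ap1, an accessory protein needed for assembly, had 3558, 4039 and 5461 in HFD and 1998, 3749 and 3832 in ND. Its log2 fold change was 0.48 ± 0.33 (limma adjusted p = 0.745), 0.18 without ND 1, and that of Atp6ap2, the prorenin receptor, was 0.23.

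**Figure D4:**
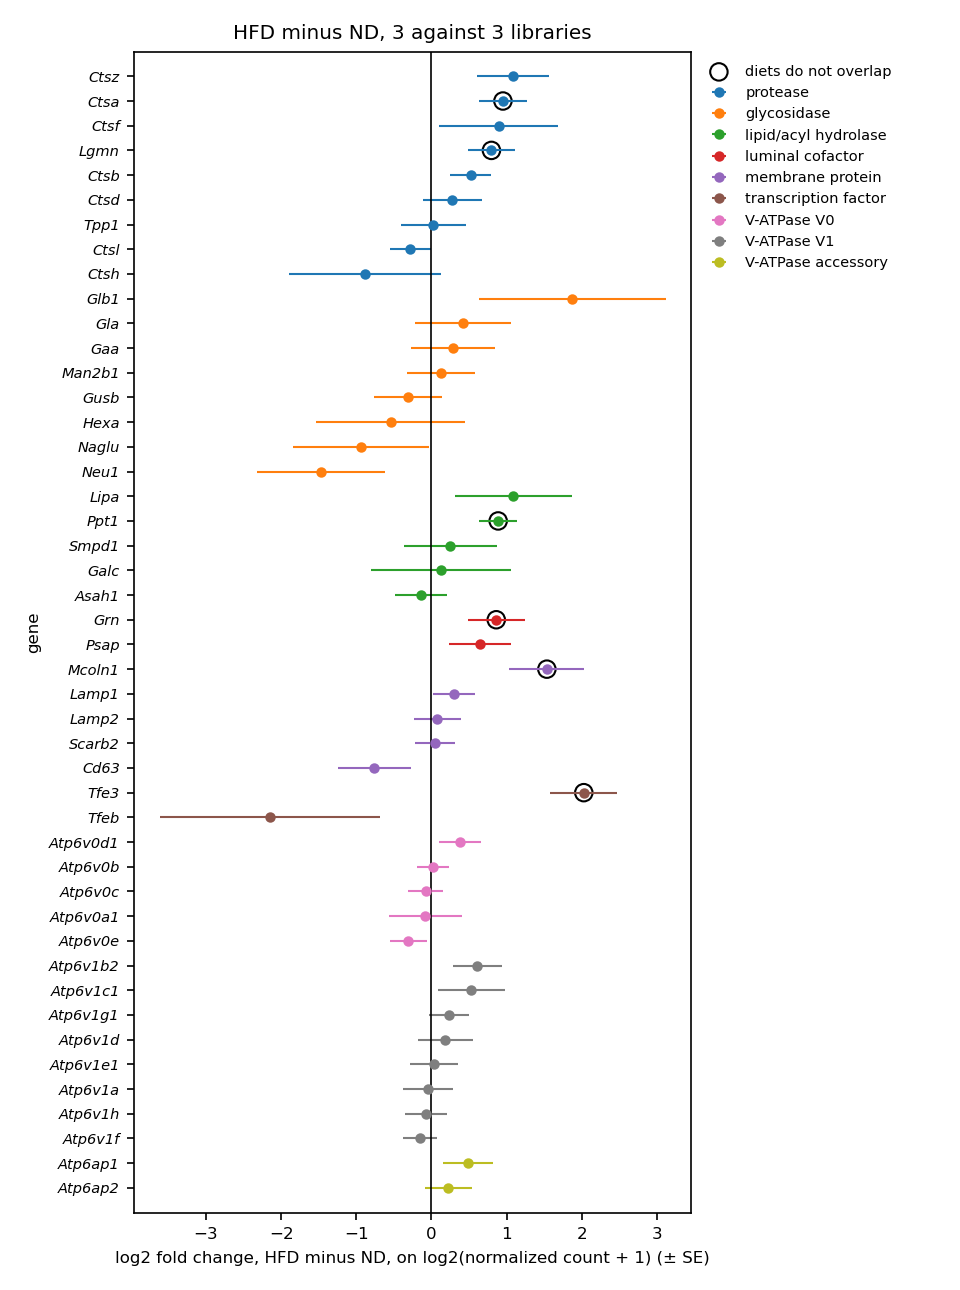
Log2 fold change, HFD minus ND, with its standard error for each of the 46 genes, grouped by role from top to bottom. Open circles mark the 6 genes whose diets do not overlap, which are Ctsa, Lgmn, Ppt1, Grn, Mcoln1 and Tfe3, and the V-ATPase genes lie between −0.31 and 0.61.

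Levels of subunits were compared with each other per exonic kilobase, where exons of all annotated transcripts are merged. Atp6v1g1 was the most abundant of the 46 members, at 9425 normalized counts per kilobase, followed by Atp6v1f at 4630, and the spread within diets was 305 in HFD and 3371 in ND for Atp6v1g1. For these genes 19.2% and 11.2% of the 50-base stretches also occur in other gene models, so their place in the order is uncertain. The next pump genes in that order, Atp6v0e at 2584 and Atp6v0b at 2439, differed by less than their spread. Atp6v0a1 was far lower, at 43.6 normalized counts per kilobase.

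Several pump subunits are encoded by a ubiquitous gene and by genes used in particular tissues. Atp6v1b2 made up 99.9% of the B subunit transcripts per kilobase in HFD and 99.8% in ND, as the renal isoform Atp6v1b1 had at most 3.54 normalized counts in any library. Atp6v0d1 made up 99.96% in HFD and 99.3% in ND of the d subunit, and Atp6v1c1 99.9% and 97.7% of the C subunit in HFD and ND. The a subunit, which directs the pump to particular membranes, had no such leader. In HFD its transcripts per kilobase were 42.5% Atp6v0a2, 30.4% Tcirg1 and 26.2% Atp6v0a1, against 25.95%, 40.4% and 29.4% in ND. These shares rested on single libraries. Without ND 3 the ND share of Tcirg1 was 25.8% and that of Atp6v0a1 35.1%, and without HFD 5 the HFD share of Tcirg1 was 36.8% and that of Atp6v0a2 34.6%, settings chosen after seeing the data. Tcirg1 had 194, 263 and 214 normalized counts in HFD and 35.4, 588 and 238 in ND, with overlap, as also for Atp6v0a1 and Atp6v0a2. Atp6v0a4, the renal a isoform, had 3.88, 5.64 and 13.7 normalized counts in HFD and 23.6, 20.3 and 53.5 in ND, without overlap.

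**Figure D5:**
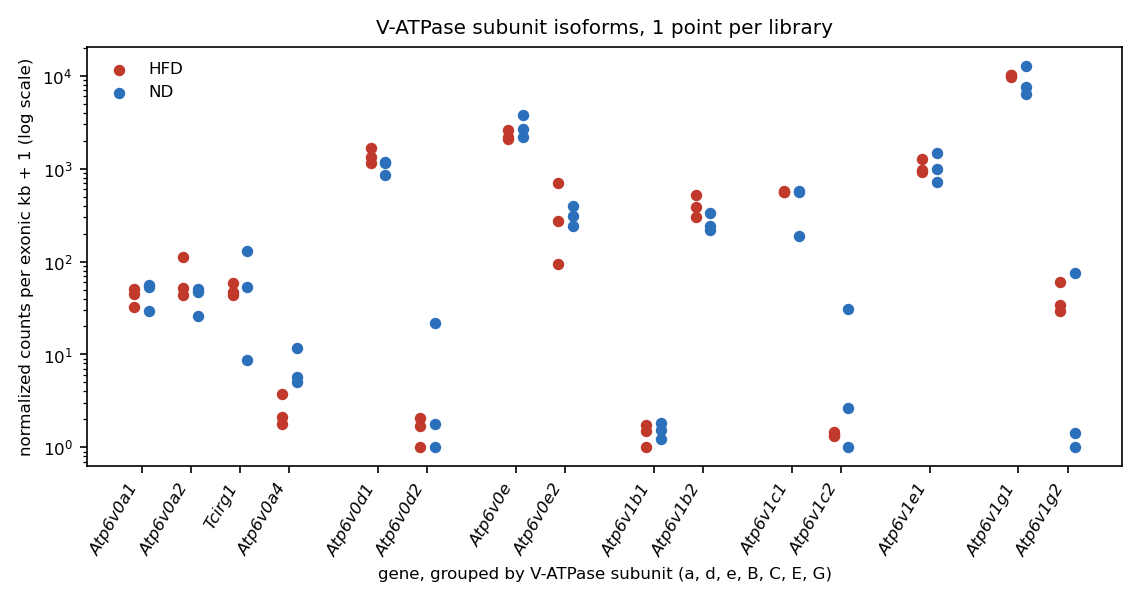
Normalized counts per exonic kilobase plus 1 (log axis) of V-ATPase isoforms grouped by subunit, with HFD in red left of ND in blue and 1 point per library. Atp6v0d1, Atp6v1b2, Atp6v1c1 and Atp6v1g1 lie far above their isoforms, whereas Atp6v0a1, Atp6v0a2 and Tcirg1 share 1 range.

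Further genes of the pathway were taken from 6 lists, of which 0 genes passed limma over all genes, so what follows gives values and counts at an unadjusted p under 0.05. Over all genes tested these were 5.56% higher and 2.36% lower in HFD. The lists, too, were chosen with earlier results of these data known, so their counts are description only. Of 36 other lysosomal hydrolases, 8 were higher and 1 lower, and 24 fold changes were above 0. Fuca1, the α-fucosidase, had 2459, 2933 and 3186 normalized counts in HFD, against 635, 1249 and 467 in ND, a log2 fold change of 1.98 ± 0.41 (limma adjusted p = 0.367). Arsb, the sulfatase that opens dermatan sulfate, had 118, 88.6 and 93.6 in HFD, against 2.36, 13.9 and 7.13 in ND. Each of these separated by diet with a wide gap.

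Among 33 genes of sorting to lysosomes, 5 were higher and 0 lower. M6pr, the cation-dependent mannose 6-phosphate receptor that brings new hydrolases from the Golgi, had 4611, 4609 and 4873 normalized counts in HFD and 2565, 2241 and 1566 in ND. M6pr had a log2 fold change of 1.17 ± 0.26 (limma adjusted p = 0.408). Rab7, the GTPase of late endosomes, had 9344, 10478 and 12805 in HFD and 5470, 6970 and 4952 in ND, a log2 fold change of 0.91 ± 0.22 (limma adjusted p = 0.441). Both separated by diet in every library. Igf2r, the other mannose 6-phosphate receptor, had a log2 fold change of −0.03.

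Of 35 other lysosomal membrane genes tested, 3 were higher and 2 lower. Laptm4a, a small membrane protein of late endosomes and lysosomes, had 10733, 11844 and 17546 normalized counts in HFD and 4983, 6035 and 5821 in ND, a log2 fold change of 1.22 ± 0.23 (limma adjusted p = 0.338). Glmp had 3236, 2440 and 4971 in HFD and 1263, 1957 and 1238 in ND, a log2 fold change of 1.23 ± 0.35 (limma adjusted p = 0.510). Neither overlapped between diets.

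Of 32 autophagy genes, 4 were higher and 0 lower. Becn1, a subunit of the lipid kinase complex that starts autophagosomes, had 2421, 3613 and 3844 normalized counts in HFD, against 1200, 1505 and 1224 in ND, and Atg12, a ubiquitin-like protein of the conjugation system, had 1936, 1898 and 2306 in HFD, against 972, 1071 and 839 in ND. Their log2 fold changes were 1.31 ± 0.29 and 1.09 ± 0.27 (limma adjusted p = 0.408 and 0.472). DESeq2 called Fuca1, M6pr, Laptm4a, Becn1 and Atg12 at adjusted p = 0.00353, 0.0151, 0.00265, 0.00651 and 0.0310, and 1.74% of all genes tested. With edgeR and limma-voom the adjusted p of the same genes was 0.490 to 0.550. They had been picked for a small limma p in the same libraries, so the DESeq2 calls are not independent of that choice.

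Genes that control TFEB and mTORC1 at the lysosome were balanced, with 11 of 23 fold changes above 0, and 1 higher and 0 lower. That gene was Lamtor1, which anchors the Ragulator complex to the lysosome, at 1867, 1238 and 1884 normalized counts in HFD and 840, 1010 and 803 in ND. Its log2 fold change was 0.89 ± 0.31 (limma adjusted p = 0.567). Ppp3cb, a catalytic subunit of calcineurin, the phosphatase that acts on TFEB, had 1387, 1152 and 625 in HFD and 2145, 1377 and 2413 in ND, with HFD 2 just above ND 3. Ppp3cb had a log2 fold change of −0.94 ± 0.41 (limma adjusted p = 0.635), and −0.61 without HFD 5. Of 16 further V-ATPase and assembly genes tested, 0 had an unadjusted p under 0.05. The smallest was that of Atp6v0a4, given above, at a limma unadjusted p = 0.0703 and adjusted p = 0.644. Where the mean reached 50 normalized counts, the smallest were those of Atp6v1g2, with 71.9, 150 and 83.5 normalized counts in HFD and 187, 1.07 and 0 in ND, and Rogdi, with 793, 698 and 1197 in HFD and 672, 608 and 598 in ND (limma adjusted p = 0.659 and 0.762).

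All 46 members are annotated as protein coding in GENCODE M21 on GRCm38, spread over 18 chromosomes, with 5 on the X chromosome (Tfe3, Lamp2, Gla, Atp6ap1 and Atp6ap2). Tfe3 lies on chromosome X from 7762560 to 7775202 and Mcoln1 on chromosome 8 from 3500457 to 3515232. Ctsa lies on chromosome 2 from 164832873 to 164841032, Ppt1 on chromosome 4 from 122836242 to 122859175, Lgmn on chromosome 12 from 102394084 to 102439813 and Grn on chromosome 11 from 102430315 to 102437048. Tfe3 and Mcoln1 overlap no exon of another gene there.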

How the data were processed

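The authors deposited 1 table of a normalized signal per gene and library, which its values show to be reads scaled by 1 factor per library. The submitters' processing notes name HTSeq 0.6.1, DESeq2, SAMtools 0.1.19, TopHat2 2.0.10, cutadapt, Bowtie 1.0.0, FastQC 0.11.7 and GRCm38, with no role given. For annotation and counting strand nothing was given in the sources used here. Every value was a whole multiple of 1 read (100% within 1e-06), so reads were recovered, and 0 columns were unmatched. No library repeated another: chi-square over degrees of freedom was 84.3 to 205 between pairs. No molecular identifiers are mentioned, so amplified reads are not independent molecules.

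Values were tested as log2(value + 1), over genes with a mean of at least 10, two-sided, with limma 3.58.1 (intensity trend) in R 4.3.3. Adding 1 narrows ratios of low values, yet for genes with values near 0 this fit can also give larger changes than other tests. The log2 fold change of Tfeb was −2.15, against −0.73 with DESeq2, and that of Atp6v1g2 was 3.74, against 0.66 with DESeq2. Recovered reads were also tested with edgeR 4.0.16, DESeq2 1.42.0 and limma-voom. P-values measure the spread between mice numbered separately within a diet. Number 4 occurs in both diets and was taken as different animals. Tests were checked on simulated counts. Full statistics are given for the 12 members of smallest p and for members fixed whatever their values (23 in all). From each of 6 other lists, the 2 genes of smallest unadjusted p with a mean of at least 50 were taken. Members and lists were chosen with earlier results of these data known. Lists are described by counts and medians. Alternatives were pseudocounts, filters, scalings, other tests and leaving out each library. Promoters are from RefSeq on GRCm38.p6, and positions and lengths from GENCODE M21.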

Additional observations from a re-analysis of the deposited data

How the results depend on the processing

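The count of genes past the threshold was 0 in every limma, limma-voom and edgeR setting, including each fit without 1 library, and 272 with DESeq2, where it was 1 for the members. Members without overlap and higher in HFD numbered 6, and 6 to 14 when 1 library was left out (11 without HFD 2, 12 without ND 3 and 14 without ND 1), a range that includes fewer samples to separate and was computed after seeing the data. The median log2 fold change of the hydrolases was 0.09 (DESeq2) to 0.51 (without ND 3), that of the V-ATPase genes −0.08 to 0.18 and that of the membrane proteins −0.04 to 0.20, each within 1 SD between libraries of its reported value. Signs held in every fit without 1 library for 11 of 22 hydrolases, 8 of 15 V-ATPase genes and 3 of 5 membrane proteins. They also held for 2 of 2 luminal cofactors and 2 of 2 transcription factors. Among the 35 named genes, signs turned for 5 members near 0. Lamp2 was −0.041 under equal column totals, −0.052 with edgeR, −0.080 with DESeq2 and −0.19 to 0.42 without 1 library. Without 1 library Ctsd was −0.073 to 0.64, Atp6v0c −0.25 to 0.050, Atp6v1a −0.29 to 0.21 and Atp6v1h −0.29 to 0.10. The cause was not tested. With a minimum mean of 50, Tfeb was not tested. No paired analysis was made. The diets share only the mouse number 4, which was taken to name different animals, as the labels do not say. With 3 mice a diet, the median standard error was 0.75 log2 units over all genes and 0.39 over the members. Changes of that size were within error, and larger ones could be too. Grn, with a log2 fold change of 0.86 ± 0.38 (SE), had a limma unadjusted p = 0.0563.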
